A study of Mus musculus with 22 samples.

Results

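Il33, Tslp, Il18, Il1a, Il1rn, Il4ra, Il13ra1 and Stat6 were followed in single cell RNA sequencing of mouse esophageal epithelium. The 8 genes were chosen by name as epithelial cytokines and the type 2 receptor pathway, and they are 8 of the 17541 genes in the deposited count tables. All 8 rows were present in every table, and UMIs (unique molecular identifiers, each counted as 1 captured transcript) were summed per mouse over all deposited cells. Of the 8 genes, 4 passed the filter on low counts and were tested in the fit over all genes (Il33, Il1rn, Il13ra1 and Stat6), while Tslp, Il18, Il1a and Il4ra did not.

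IL-33, TSLP and IL-1 alpha are alarmins, cytokines that barrier epithelium releases on injury, and IL-18 is stored as a precursor that caspase-1 cleaves. Il1rn encodes the antagonist that occupies the IL-1 receptor without signaling. Il4ra and Il13ra1 encode the chains of the type II receptor, through which IL-4 and IL-13 act on keratinocytes by phosphorylating the transcription factor STAT6. This pathway is known for its part in eosinophilic esophagitis, in which IL-13 alters the differentiation of the esophageal epithelium.

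Epithelium was peeled from C57BL6 mice and captured with inDrop droplets. The 13 mice comprised 6 controls without disease induction, 4 mice with EoE (eosinophilic esophagitis-like inflammation) and 3 mice with ESCC (esophageal squamous cell carcinoma). EoE was induced over 32 days with the vitamin D analog MC903 on abraded ears and the allergen ovalbumin (OVA), and ESCC with the carcinogen 4NQO at 100 µg/mL in drinking water for 16 weeks and 8 weeks without it. Controls were young (3 to 4 months, 3 mice) or old (18 to 20 months, 3 mice), EoE mice young (6 to 8 weeks, 2 mice) or old (19 to 20 months, 2 mice), and ESCC mice 8 to 10 months, so condition, age and library depth cannot be fully told apart. No sample here is labelled as having MC903 without OVA, and the ESCC labels name no stage.

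The tables held 1500 cells per condition, with 112412 to 427752 UMIs per control mouse, 61571 to 85774 per EoE mouse and 1293418 to 2118140 per ESCC mouse. UMIs per cell had a median of 990 for control, 138 for EoE and 3099.5 for ESCC, and 144 of the 1500 EoE cells lay within the limits that the methods state for genes and UMIs per cell. Each control and ESCC mouse had 2 libraries, and 239 cell barcodes were in both libraries of a mouse. The median correlation of the 2 profiles of such a barcode was 0.62 to 0.86 by mouse, against 0.26 to 0.47 for other pairs of cells, so the same cells may be held in both. Counting each such barcode once changed no call of the 4 tested genes in the comparisons between conditions. All 10 epithelial markers were found in each condition. No UMI was found in any of the 6 listed eosinophil and mast cell markers, Ccr3, Cpa3, Mcpt4, Tpsb2, Cma1 and Fcer1a. The eosinophil markers Siglecf, Prg2, Epx and Il5ra were not listed, so this absence says little about eosinophils. The 13 listed immune markers had 1278 UMIs in ESCC, 761 of them of Cd74, and 12 in control and 13 in EoE. In EoE the endothelial marker Pecam1 had 103 UMIs while the other 4 endothelial markers were at 0.

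Levels are given as CPM, the UMIs of a gene scaled to a common total per mouse, class or condition. A count of 0 is taken here to allow up to 3 UMIs. Over a whole condition that is 1.71 CPM in control, 10.1 CPM in EoE and 0.578 CPM in ESCC. A gene with 0 UMIs in EoE may therefore be at a level that gave UMIs in the deeper conditions. Intervals and limits given here cover counting error only.

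Promoter sequences were looked up because Stat6 and its receptor are among the genes. RefSeq (GRCm38.p6) gave 10 windows, from 250 bases before to 50 after a transcription start, for 7 of the 8 genes. The motif TTCNNNNGAA, the spacing that STAT6 is known to prefer, was in 4 windows of 3 genes (2 of them overlapping windows of Il1rn), on either strand since it is its own reverse complement, and in 6.95% of the 32851 windows examined genome-wide. TTCNNNGAA was in 0 of the 10 windows and in 8.30% of all windows. The AP-1 motif TGANTCA, also its own reverse complement, was in 2 windows, those of Il1a and of the first Il1rn start, and in 7.81% of all windows. The 250 bases before the start are given for the 3 genes with TTCNNNNGAA, 5′ to 3′, with the match in capitals. A match of these letters is a description of the sequence and not a binding site.
Il33, chr19:29924863-29925112, plus strand: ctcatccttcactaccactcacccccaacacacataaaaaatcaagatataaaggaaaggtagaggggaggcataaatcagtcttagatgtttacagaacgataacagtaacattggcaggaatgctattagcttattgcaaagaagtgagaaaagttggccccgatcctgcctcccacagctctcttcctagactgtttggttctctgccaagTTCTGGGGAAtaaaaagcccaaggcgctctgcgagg
Il18, chr9:50554450-50554699, plus strand: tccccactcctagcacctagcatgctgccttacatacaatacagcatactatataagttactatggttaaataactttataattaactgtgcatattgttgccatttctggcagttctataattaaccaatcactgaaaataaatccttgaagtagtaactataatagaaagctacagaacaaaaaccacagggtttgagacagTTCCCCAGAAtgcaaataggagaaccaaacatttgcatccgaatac
Il1rn, chr2:24345041-24345290, plus strand: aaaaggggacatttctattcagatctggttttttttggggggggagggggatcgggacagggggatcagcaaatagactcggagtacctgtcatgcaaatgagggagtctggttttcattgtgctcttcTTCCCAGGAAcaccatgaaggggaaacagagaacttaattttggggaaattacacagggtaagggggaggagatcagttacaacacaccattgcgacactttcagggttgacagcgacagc

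Il33 was the alarmin with the most UMIs, and it was higher in EoE and lower in ESCC than in control. The gene (ENSMUSG00000024810) lies at chr19:29925114-29960718 on the plus strand and overlaps no other annotated gene. Il33 had 109 UMIs in control, 50 in EoE and 42 in ESCC, which is 62.3, 168 and 8.10 CPM over the pooled cells of each condition. Among the 6 control mice the lowest level was 0 (mouse 2), the median 61.2 and the highest 91.4 CPM (mouse 1). The EoE mice had 256 (mouse 9), 281 (mouse 10), 97.4 (mouse 11) and 0 CPM (mouse 12), where 3 UMIs in mouse 12 would be 41.7 CPM. The ESCC mice had 5.41 (8M), 8.45 (17F) and 9.44 CPM (17M). All EoE mice but mouse 12 were above every control mouse and mouse 12 had no UMI, so the groups overlapped. The ESCC range lay above control mouse 2 at 0 and overlapped control mouse 3 at 8.90 CPM, and all ESCC mice were below the other 4 controls, the lowest of which had 58.4 CPM.

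**Figure D1:**
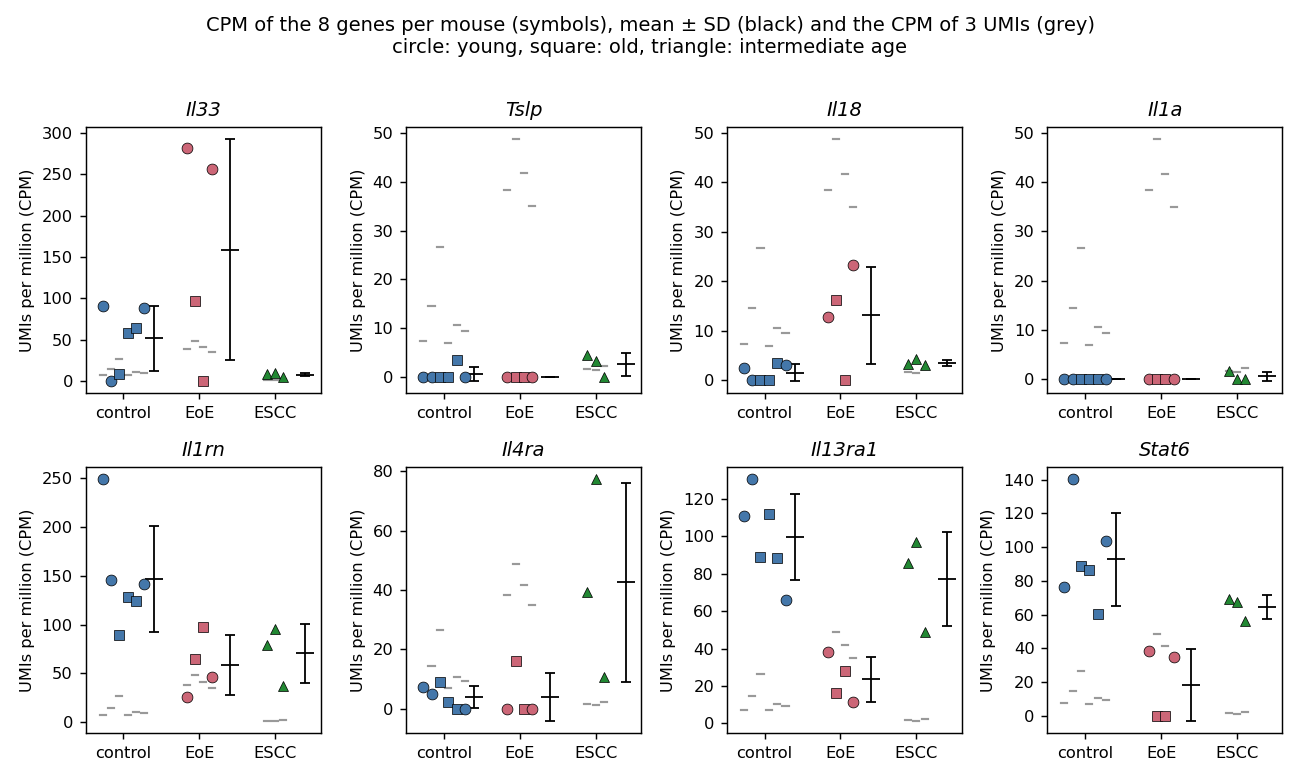
CPM (y axis) of the 8 genes in each of the 13 mice, grouped by condition on the x axis. Symbols are mice, black bars the mean and SD of a group, and grey dashes the CPM that 3 UMIs would give in that mouse. EoE mice 9 to 11, at 97.4 to 281 CPM, lie above all controls for Il33, and the ESCC mice lie above all controls for Il4ra. For Il4ra, ESCC mouse 8M lies below the grey dashes of control mice 2 and 3.

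The mean was 51.8 ± 39.0 CPM in control (SD, n = 6), 159 ± 134 in EoE (n = 4) and 7.77 ± 2.10 in ESCC (n = 3). In the edgeR quasi-likelihood fit of per-mouse sums, Il33 was higher in EoE than in control by a log2 fold change of 1.59 (SE 0.54, adjusted p = 0.0174). This call was not held by DESeq2 (adjusted p = 0.115), nor without EoE mouse 9 (0.134) or EoE mouse 10 (0.137). Il33 was lower in ESCC than in control by a log2 fold change of -2.71 (SE 0.54, adjusted p = 0.000362) and lower than in EoE by -4.30 (SE 0.66, adjusted p = 5.99e-06), and both held in every alternative run. The share of all tested genes called was 50.7% for EoE versus control, 33.5% for ESCC versus control and 56.5% for ESCC versus EoE. A call alone therefore sets no gene apart in these comparisons. The median log2 fold change of all tested genes in EoE versus control was -0.31, and both comparisons with control share the same 6 mice.

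**Figure D2:**
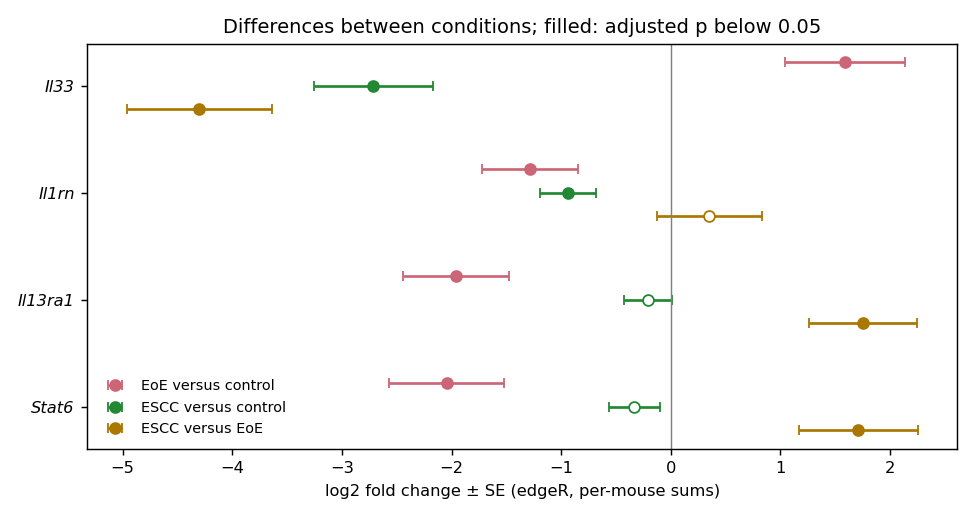
Log2 fold changes with their SE (x axis) of the 4 genes that passed the filter, for the 3 comparisons between conditions. Filled points have an adjusted p below 0.05. Il33 is the only 1 of the 4 that was higher in EoE than in control, at 1.59.

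Il33 UMIs were held by few cells. They came from 60 control, 20 EoE and 24 ESCC cells, and the cell with the most carried 7, 9 and 7 UMIs. With each cell thinned to 100 UMIs, the expected share of cells with an Il33 UMI was 0.370% ± 0.259 in control, 0.451% ± 0.320 in EoE and 0.0814% ± 0.0274 in ESCC (SD over 6, 4 and 3 mice, with 415 shallower EoE cells left out). Without thinning the shares were 3.38% ± 2.59, 1.57% ± 1.58 and 1.61% ± 0.380, an order that differs from that of the thinned shares and of the CPM.

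Il33 was found almost entirely in differentiated cells of the control and EoE epithelium. Each cell was classed by whether they held more UMIs of Krt5, a keratin of basal cells, or of Krtdap, a protein of differentiating suprabasal cells. This gave 922 Krt5-dominant and 537 Krtdap-dominant control cells, 221 and 233 EoE cells, and 1343 and 138 ESCC cells, and 1046 of the 1500 EoE cells had equal numbers and were left out. In control, 105 Il33 UMIs were in Krtdap-dominant and 3 in Krt5-dominant cells. All 3 of the latter were in mouse 1. The 6 control mice had 0 to 13.5 CPM in Krt5-dominant cells and 0 to 191 CPM in Krtdap-dominant cells, and the level was higher in the latter in 4 mice, the other 2 being at 0 in both classes. The log2 difference in control was 5.15 (SE 0.55, adjusted p = 1.36e-19), and 44.1% of all genes were called in this comparison. A UMI of Il33 was in 10.4% of control Krtdap-dominant cells (median 1172 UMIs) and in 0.325% of Krt5-dominant cells (median 952 UMIs).

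In EoE all 50 Il33 UMIs were in Krtdap-dominant cells, none in Krt5-dominant cells and none in the unclassed cells. The 4 EoE mice had 658, 559, 419 and 0 CPM in Krtdap-dominant cells. Pooled over mice, the Krtdap-dominant level of 474 CPM was 6.80-fold the 69.7 CPM that 3 UMIs would give in Krt5-dominant cells. This ratio leaves out counting error in the Krtdap-dominant level, so it is not a lower bound. The counting interval was 352 to 625 CPM in Krtdap-dominant cells and 0 to 85.7 CPM in Krt5-dominant cells. The EoE mouse at 0 CPM had no Il33 UMI in either class. In EoE, edgeR called Il33 between the classes (adjusted p = 1.11e-06) where 7.98% of genes were called. In ESCC the 3 mice had 2.93, 4.41 and 7.84 CPM in Krt5-dominant cells and 15.4, 48.1 and 26.4 CPM in Krtdap-dominant cells. The ESCC log2 difference was 2.48 (SE 0.57, adjusted p = 0.000109), with 29.5% of genes called. Unlike in control and EoE, more ESCC UMIs were in Krt5-dominant cells (25) than in Krtdap-dominant cells (17), and the classes did not overlap between mice. The test of whether the class difference itself was smaller in ESCC than in control gave a log2 of -2.67 (SE 0.92) with an adjusted p of 0.117, and 1.95% of genes were called.

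**Figure D3:**
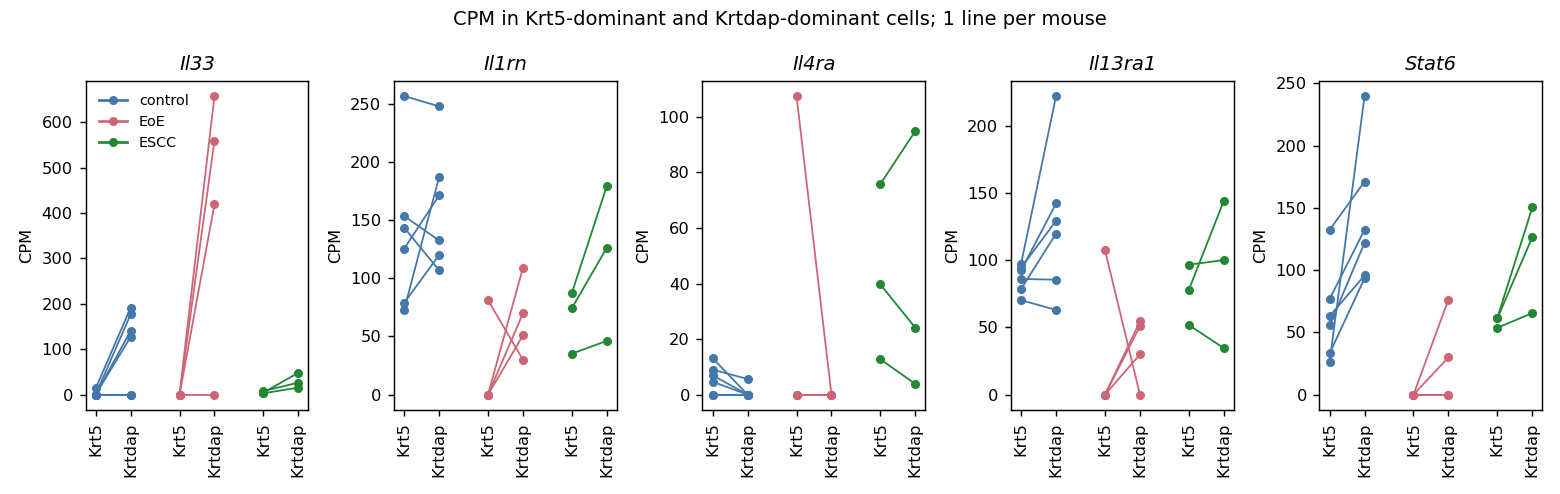
CPM (y axis) of 5 of the genes in Krt5-dominant and Krtdap-dominant cells (x axis), with 1 line per mouse and colors for condition. Il33 rises from 0 in EoE Krt5-dominant cells to 419 to 658 CPM in 3 EoE mice, while Il1rn lines of the controls run in either direction.

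Within Krtdap-dominant cells the condition differences of Il33 kept their direction. Il33 was higher in EoE than in control by a log2 of 1.67 (SE 0.46, adjusted p = 0.00411, with 40.5% of genes called), a call lost under DESeq2 (adjusted p = 0.116) and without EoE mouse 9 (0.0599) or 10 (0.0511). It was lower in ESCC than in control by -2.0 (SE 0.56, adjusted p = 0.00721, with 25.7% of genes called), a call lost under DESeq2 (adjusted p = 0.304), with classes from summed markers (0.0996) and without ESCC mouse 8M (0.0533). Within Krt5-dominant cells Il33 did not pass the filter.

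A finer split was made after the values were seen. Krtdap-dominant cells in which Sprr3, Crct1 and Cnfn, genes of the late cornifying layers, made up at least 1% of UMIs were called late. There were 112 late cells in control, 46 in EoE and 5 in ESCC. They held 99 of 109 Il33 UMIs in control and 47 of 50 in EoE, but 7 of 42 in ESCC, all 7 in 1 cell of mouse 17F. In the 4 control mice with at least 17 late cells the Il33 level in late cells was 530 (mouse 1), 568 (mouse 4), 519 (mouse 5) and 473 CPM (mouse 6). It was 1341 (mouse 9), 1154 (mouse 10) and 1323 CPM (mouse 11) in the 3 EoE mice with at least 10 late cells. These 3 EoE values lay above those 4 control values. The value of mouse 11 rests on 5 UMIs in 3 of its 10 late cells, where 3 UMIs would be 794 CPM. Control mouse 2 and EoE mouse 12, which had no Il33 UMI at all, had 4 late cells each, and 3 UMIs there would be 639 and 1139 CPM.

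In all cells that were not late, Il33 was at 6.43 CPM in control, 11.7 CPM in EoE and 6.78 CPM in ESCC. The EoE value rests on 3 UMIs, the number that a count of 0 allows. Late cells gave 11.2% of UMIs in control, 13.5% in EoE and 0.469% in ESCC. By mouse, late cells gave 9.46% to 18.0% of UMIs in the 4 control mice with 18 Il33 UMIs or more, and 0% to 2.27% in the other 2 control mice. The share of late cells moved with the Il33 level across mice, and its part in the differences between conditions was not tested. Cells with an Il33 UMI had 56303 CPM of the 5 differentiation markers in control, against 7675 CPM in cells without one.

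**Figure D4:**
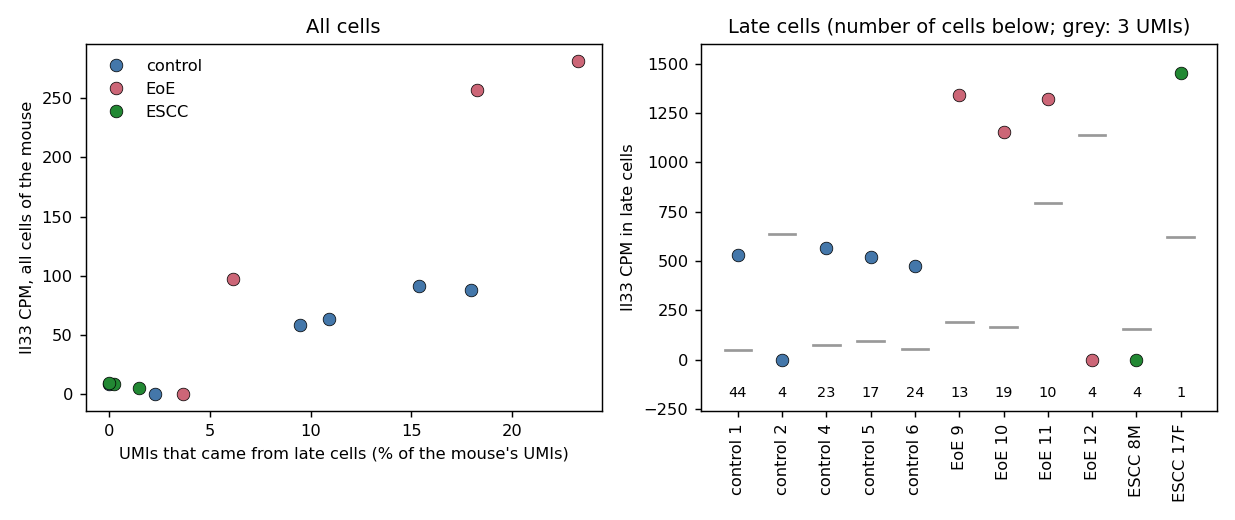
Left, Il33 CPM over all cells of a mouse (y axis) against the percent of that mouse's UMIs that came from late cells (x axis), with 1 point per mouse. Right, Il33 CPM within late cells for the 11 mice that had any, with the number of late cells below and the level of 3 UMIs in grey. Controls with 17 or more late cells lie at 473 to 568 CPM and 3 EoE mice at 1154 to 1341 CPM in late cells.

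Tslp, an alarmin of type 2 responses at barriers, overlaps 4930455D15Rik on the other strand and was near or below the limit of detection. It had 1 UMI in control (mouse 5), 0 of 297425 UMIs in EoE and 15 in ESCC, with 8 in mouse 17F, 7 in mouse 17M and 0 in mouse 8M. In mouse 17M, 5 of the 7 UMIs were in 1 cell. All 15 ESCC UMIs were in Krt5-dominant cells. The pooled ESCC level of 2.89 CPM (95% Poisson interval 1.62 to 4.77) lies below the 10.1 CPM that the count of 0 allows in EoE, so the conditions cannot be ordered. Over mice, ESCC was not called against control by a two-sided exact permutation test (difference 2.28 CPM after TMM scaling, p = 0.167, adjusted p = 0.400 over 12 such tests).

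Il18 was sparse in every condition. It lies at chr9:50554827-50581840 on the plus strand and overlaps Bco2 and Tex12 on the other strand, and whether the counting used strand is not given in the sources used here. It had 3 UMIs in control, 4 in EoE and 19 in ESCC. Control mice had 0 to 3.55 CPM (median 1.24), EoE mice 23.3, 12.8, 16.2 and 0 CPM, and ESCC mice 3.09, 3.38 and 4.25 CPM. Each EoE value rests on 0 to 2 UMIs and lies below the level of 3 UMIs in its mouse. The exact permutation test gave p = 0.0476 for ESCC versus control after TMM scaling (difference 2.48 CPM, adjusted p = 0.267) and p = 0.119 on library size alone. For EoE versus control the same test gave p = 0.0667 after TMM scaling (difference 12.8 CPM, adjusted p = 0.267). All 19 ESCC UMIs were in Krt5-dominant cells, and all 4 EoE UMIs in Krtdap-dominant cells, counts too few to compare.

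Il1a lies at chr2:129299610-129309972 on the minus strand, where Gm14023 overlaps it on the other strand. It had 0 UMIs in control, 0 in EoE and 3 in ESCC, all in mouse 17F. At these depths Il1a was at most 1.71 CPM in control and 10.1 CPM in EoE by the count of 0. No fold was computed, since all 3 groups were at or under the level of 3 UMIs.

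Il1rn, the IL-1 receptor antagonist, was the most detected of the 8 genes in control and was lower in both disease models. The gene (ENSMUSG00000026981) lies at chr2:24336853-24351494 on the plus strand and overlaps no other annotated gene. It had 276 UMIs in control, 17 in EoE and 390 in ESCC. Control mice ranged from 89.0 CPM (mouse 3) over a median of 135 to 249 CPM (mouse 1). EoE mice had 46.6, 25.6, 65.0 and 97.3 CPM, and ESCC mice had 37.1 (8M), 78.9 (17F) and 95.4 CPM (17M). The EoE and ESCC ranges overlapped each other, and each overlapped the controls only at control mouse 3, which EoE mouse 12 and ESCC mouse 17M exceeded.

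The log2 fold change of Il1rn was -1.29 in EoE versus control (SE 0.44, adjusted p = 0.0168) and -0.94 in ESCC versus control (SE 0.26, adjusted p = 0.00637). The EoE call was lost without EoE mouse 9 (adjusted p = 0.0636) or mouse 10 (0.0892), while the ESCC call held in every alternative run. ESCC versus EoE was not called (log2 0.35, SE 0.48, adjusted p = 0.547). By cell class, Il1rn was at 152 CPM in Krt5-dominant and 165 CPM in Krtdap-dominant control cells, and 3 of the 6 mice were higher in each (log2 difference 0.15, SE 0.23, adjusted p = 0.632). In ESCC all 3 mice were higher in Krtdap-dominant cells, with a log2 difference of 0.85 (SE 0.27, adjusted p = 0.00923) that was lost with classes from summed markers (0.520) and without mouse 17M (0.114).

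Within cell classes, Il1rn was called lower in EoE in both and in ESCC in Krt5-dominant cells alone. In Krt5-dominant cells, control mice had 72.8 to 257 CPM and ESCC mice 35.2 to 87.3 CPM, a log2 fold change of -0.89 (SE 0.27, adjusted p = 0.0107, with 29.5% of genes called), lost under DESeq2 (0.0899) and without control mouse 1 (0.104). In EoE the same class held 1 Il1rn UMI, and the log2 fold change was -3.31 (SE 1.11, adjusted p = 0.0203, with 33.8% of genes called). In Krtdap-dominant cells Il1rn had 6 EoE UMIs and a log2 fold change of -1.61 (SE 0.61, adjusted p = 0.0328), and in ESCC it was -0.32 (SE 0.32, adjusted p = 0.516). These EoE calls rest on 7 classed UMIs, the other 10 being in unclassed cells, and they were lost in 6 of 20 alternatives in Krt5-dominant and 7 of 20 in Krtdap-dominant cells.

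Il4ra, the chain that IL-4 and IL-13 receptors share, was barely detected in control and EoE and clearly detected in ESCC. It lies at chr7:125552120-125579474 on the plus strand (ENSMUSG00000030748), and the annotated gene Gm44876 overlaps it on the other strand. It had 6 UMIs in control, 1 in EoE and 248 in ESCC. Control mice had 0 to 8.90 CPM with a median of 3.59, and ESCC mice had 10.8 (8M), 39.4 (17F) and 77.4 CPM (17M). All 3 ESCC mice lay above all 6 controls, with mouse 8M closest to them. In control mice 2 and 3, 3 UMIs would be 14.5 and 26.7 CPM, both above mouse 8M. The control values rest on 0 to 3 UMIs each, so mouse 8M, with 14 UMIs, is not clearly resolved from single control mice. The EoE UMI was in mouse 11, which gives 16.2 CPM and is below the 48.7 CPM of 3 UMIs there.

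Pooled over cells, Il4ra was 14.0-fold higher in ESCC than in control, with a 95% counting interval of 6.32 to 38.4. It was 7.99-fold without ESCC mouse 17M, which held 164 of the 248 UMIs (interval 3.52 to 22.4), and 21.5-fold without control mouse 1 (7.26 to 104.7). The mean after TMM scaling was 47.5 ± 37.0 CPM in ESCC (SD, n = 3) and 3.89 ± 3.73 CPM in control (n = 6). The exact permutation test gave p = 0.0238, the smallest it can give for 3 against 6 mice, with an adjusted p of 0.267 over the 12 tests. When no filter on low counts was applied, edgeR gave a log2 fold change of 3.78 (SE 0.46, adjusted p = 1.41e-14), with 18.3% of genes called. That fit shares its estimate of spread over genes, so its p does not rest on the wide spread of these 3 ESCC mice alone. ESCC versus EoE gave an exact permutation p of 0.114. With repeated barcodes counted once, control had 2 Il4ra UMIs and ESCC 219, a ratio of 36.9 (10.1 to 306.6).

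Il4ra was in 181 ESCC cells, of which 158 were Krt5-dominant, 19 Krtdap-dominant and 4 unclassed. The level was 48.8 CPM in Krt5-dominant and 37.3 CPM in Krtdap-dominant ESCC cells, and the log2 difference between the classes was -0.12 (SE 0.44, adjusted p = 0.881). Immune cells are known to express this receptor, and of the conditions ESCC had the most immune marker UMIs, the 1278 given above. In the 124 ESCC cells with an immune marker UMI Il4ra was at 105 CPM, and in all other ESCC cells at 43.2 CPM, where 207 of the 248 UMIs lay. Without the 22 ESCC cells called non-epithelial the pooled level was 47.3 CPM, against 47.8 CPM with them.

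Il13ra1, which binds IL-13 and pairs with the Il4ra chain, was lower in EoE than in control and was not called in ESCC versus control. The gene (ENSMUSG00000017057) lies at chrX:36112110-36171259 on the plus strand. It had 176 UMIs in control, 7 in EoE and 420 in ESCC. Control mice had 66.1 to 131 CPM with a median of 100.1 CPM. EoE mice had 11.7, 38.4, 16.2 and 27.8 CPM, and ESCC mice 48.7 (8M), 85.6 (17F) and 96.8 CPM (17M). No EoE mouse reached the lowest control, whereas ESCC mice 17F and 17M lay within the control range.

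The log2 fold change of Il13ra1 was -1.96 in EoE versus control (SE 0.48, adjusted p = 0.00152). With only the cells inside the stated limits, which left 144 EoE cells, it was -1.16 with an adjusted p of 0.136. For ESCC versus control it was -0.21 (SE 0.22, adjusted p = 0.498), and for ESCC versus EoE it was 1.75 (SE 0.49, adjusted p = 0.00402). By class, control cells had 88.0 CPM when Krt5-dominant and 118 CPM when Krtdap-dominant, with 4 of 6 mice higher in the latter (log2 0.47, SE 0.27, adjusted p = 0.150). That difference passed the threshold in 12 of 20 alternatives. In ESCC the classes were at 80.0 and 84.4 CPM (log2 0.26, SE 0.30, adjusted p = 0.549). In EoE versus control, Krt5-dominant cells gave -2.57 (SE 1.02, adjusted p = 0.0490) on 1 EoE UMI, lost in 11 of 20 alternatives, and Krtdap-dominant cells gave -1.73 (SE 0.72, adjusted p = 0.0533).

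Stat6, the transcription factor downstream of both receptors, followed Il13ra1 between conditions. It lies at chr10:127642986-127660957 on the plus strand (ENSMUSG00000002147), with Nab2 overlapping on the other strand. It had 157 UMIs in control, 6 in EoE and 339 in ESCC. Control mice had 60.3 to 140.5 CPM with a median of 87.7 CPM. EoE mice had 35.0, 38.4, 0 and 0 CPM, where 3 UMIs in the mice at 0 would be 48.7 and 41.7 CPM. ESCC mice had 56.4 (8M), 69.3 (17F) and 67.5 CPM (17M). The EoE values all lay below the lowest control, and only ESCC mouse 8M did so among the ESCC mice.

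The log2 fold change of Stat6 was -2.04 in EoE versus control (SE 0.53, adjusted p = 0.00229), which held in every alternative run. It was -0.33 in ESCC versus control (SE 0.23, adjusted p = 0.284) and 1.71 in ESCC versus EoE (SE 0.54, adjusted p = 0.00980). Stat6 was higher in Krtdap-dominant cells in all 6 control mice. Their CPM in Krt5-dominant cells was 26.2 to 132 and in Krtdap-dominant cells 93.4 to 240, with a log2 difference of 0.99 (SE 0.29, adjusted p = 0.00207). All 3 ESCC mice also had more in Krtdap-dominant cells, at 65.4, 150.3 and 127 CPM against 53.7, 61.7 and 61.2 CPM in Krt5-dominant cells (log2 0.94, SE 0.29, adjusted p = 0.00599, lost with classes from summed markers at 0.318 and without mouse 17F at 0.0521). Within Krtdap-dominant cells Stat6 was lower in EoE than in control (log2 -1.81, SE 0.66, adjusted p = 0.0265, on 4 EoE UMIs), a call lost in 5 of 19 alternatives, and in ESCC the value was 0.02 (SE 0.31, adjusted p = 0.975).

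Thus all 4 tested genes were called in EoE versus control, 2 of 4 in ESCC versus control and 3 of 4 in ESCC versus EoE, beside the 50.7%, 33.5% and 56.5% of all genes given above. Fewer cells of a type and less RNA per cell cannot be told apart in sums over cells.

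Age was examined within control and EoE mice. In old versus young control, 0 of the 4 tested genes were called by edgeR, with 1 at an unadjusted p under 0.05 (Il1rn, log2 -0.57, SE 0.26, adjusted p = 0.957), where 0.114% of all genes were called. The difference of the EoE effect with age was called for 0 of the 4 by edgeR (0.0228% of all genes called), with 3 at an unadjusted p under 0.05. For Il33 the young EoE mice had 256 and 281 CPM and the old ones 97.4 and 0 CPM, and the age interaction was a log2 of -2.28 (SE 1.08, adjusted p = 0.655). For Il1rn the order was the opposite, with 46.6 and 25.6 CPM in the young and 65.0 and 97.3 CPM in the old EoE mice (log2 1.69, SE 0.78, adjusted p = 0.651). Stat6 had 3 UMIs in each young and 0 in each old EoE mouse (adjusted p = 0.624). With 2 EoE mice of each age, and young EoE mice younger than young controls, these values are descriptions.

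Genes around the 8 were taken as lists chosen by function, with earlier results of these data known. Of 16 other ligands, 10 were listed in the tables and 2 were tested. Il1f9, which encodes the keratinocyte cytokine IL-36 gamma, rose in ESCC versus control (log2 2.43, SE 0.29, adjusted p = 3.08e-07), from 28.6 to 138 CPM, and Il1f8 did not pass (-0.21, adjusted p = 0.810). In EoE neither passed. Il1b, the inflammatory ligand that Il1rn opposes, was below the filter with 1 UMI in control, 0 in EoE and 229 in ESCC. Il1f6 had 26, 1 and 55 UMIs, which is 14.9, 3.36 and 10.6 CPM. Of the type 2 ligands, Il13 had 0 UMIs and Il4 had 2, both in EoE, and both genes were singled out with their values known. Of 15 receptors 3 were tested, and 0 passed edgeR in EoE or ESCC versus control. The decoy receptor Il1r2 gave -1.20 in EoE (SE 0.54, adjusted p = 0.0683) and -0.14 in ESCC (adjusted p = 0.796), the IL-36 receptor Il1rl2 -1.0 (adjusted p = 0.122) and -0.54 (0.127), and Il17ra 0.98 (0.0961) and -0.10 (0.839). Il1rap, the shared accessory chain, had 36, 0 and 65 UMIs in control, EoE and ESCC (20.6, 0 and 12.5 CPM), and was below the filter. Il1rl1, the IL-33 receptor, was singled out in the same way and had 0, 1 and 3 UMIs (0, 3.36 and 0.578 CPM).

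Of 18 signaling genes, 11 were tested. The share of all genes called, 50.7% in EoE and 33.5% in ESCC versus control, is the background for the counts of this list and of the lists that follow. In EoE 5 rose and 1 fell. Those that rose were Stat3 (log2 1.82, SE 0.18, adjusted p = 4.69e-09), the kinase Jak1 (1.30, adjusted p = 4.98e-07), Irak1, a kinase below IL-1 family receptors (1.40, adjusted p = 8.30e-07), Stat5a (1.64, adjusted p = 0.00484) and Nfkbia (0.67, adjusted p = 0.0370). Nfkbiz fell (-1.34, adjusted p = 0.00874). The median of the list was 0.26 in EoE, against -0.31 over all genes. In ESCC 2 rose, Nfkbia (0.83, SE 0.25, adjusted p = 0.0134) and Nfkbiz (0.65, adjusted p = 0.0214), and 1 fell, Cish, a feedback inhibitor that STAT5 is known to induce (-2.39, SE 0.45, adjusted p = 0.000169). Socs3, a feedback inhibitor of STAT signaling, did not pass in EoE (0.26, adjusted p = 0.305) or ESCC (0.19, adjusted p = 0.449). The ESCC median was -0.19, against -0.0043 over all genes. Stat6 thus fell in EoE in the same sums in which Stat3 and Stat5a rose.

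Of 15 genes for processing and release of IL-1 family cytokines, 9 were tested, of which 4 were called in EoE (50.7% of all genes) and 5 in ESCC (33.5%). The list medians were 0.21 in EoE and -0.046 in ESCC. In ESCC the inflammatory caspases Casp4 (log2 1.82, SE 0.35, adjusted p = 0.000221) and Casp1 (0.93, adjusted p = 0.00890) rose. The pore protein Gsdma (-3.80, SE 0.47, adjusted p = 5.27e-07), the inflammasome adaptor Pycard (-0.65, adjusted p = 0.0117) and the calpain subunit Capns1 (-0.57, adjusted p = 0.0217) fell there. In EoE Pycard (1.07, adjusted p = 0.000725) and Gsdma (1.04, adjusted p = 0.0452) rose, while Capn2 (-2.11, SE 0.38, adjusted p = 5.09e-05) and Capns1 (-0.74, adjusted p = 0.00811) fell. Capn1 did not pass in EoE (-0.60, adjusted p = 0.119) or ESCC (-0.0021, adjusted p = 0.998). Gsdma and Pycard were called in opposite directions in the comparisons with control.

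Of 29 genes chosen as responsive to IL-13 or STAT6, 24 were listed and 7 tested, of which 2 were called in EoE (50.7% of all genes) and 4 in ESCC (33.5%). In EoE 2 rose, Pim1, a kinase (log2 0.78, SE 0.21, adjusted p = 0.00308), and the protease inhibitor Serpinb3a (1.35, SE 0.45, adjusted p = 0.0140), and 0 fell. In ESCC 0 rose and 4 fell, namely the desmosomal cadherin Dsg1a (-2.89, SE 0.43, adjusted p = 1.00e-05), the barrier lipoxygenase Alox12b (-2.95, SE 0.49, adjusted p = 4.04e-05), Pim1 (-0.53, adjusted p = 0.0290) and Serpinb3a (-1.29, adjusted p = 0.0473). The medians were 0.64 in EoE and -1.29 in ESCC, against -0.31 and -0.0043 over all genes. The list was chosen for a response and not for its direction, so these medians of 7 genes do not measure the pathway. Clca2 did not pass in either (-0.84 and 0.34). Dsg1a and Alox12b also mark differentiated keratinocytes, and the Serpinb3 genes are near-identical copies whose reads may be split among them. Between cell classes, 7 of 7 tested list genes were called higher in Krtdap-dominant cells in control and ESCC, and 5 of 7 in EoE. The shares of all genes called there were 44.1%, 29.5% and 7.98%. The part of differentiated cells in the list medians was not tested. The chemokine genes Ccl24, Ccl11 and Ccl22 of this list were singled out with their values known. The eosinophil chemokine gene Ccl24 had 0 UMIs in each condition. Ccl11 had 2, 0 and 123 UMIs in control, EoE and ESCC (1.14, 0 and 23.7 CPM), with ESCC mice at 0.773 to 37.2 CPM. Ccl22 had 0, 7 and 9 UMIs (0, 23.5 and 1.74 CPM), with EoE mice at 11.7 to 32.5 CPM.

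**Figure D5:**
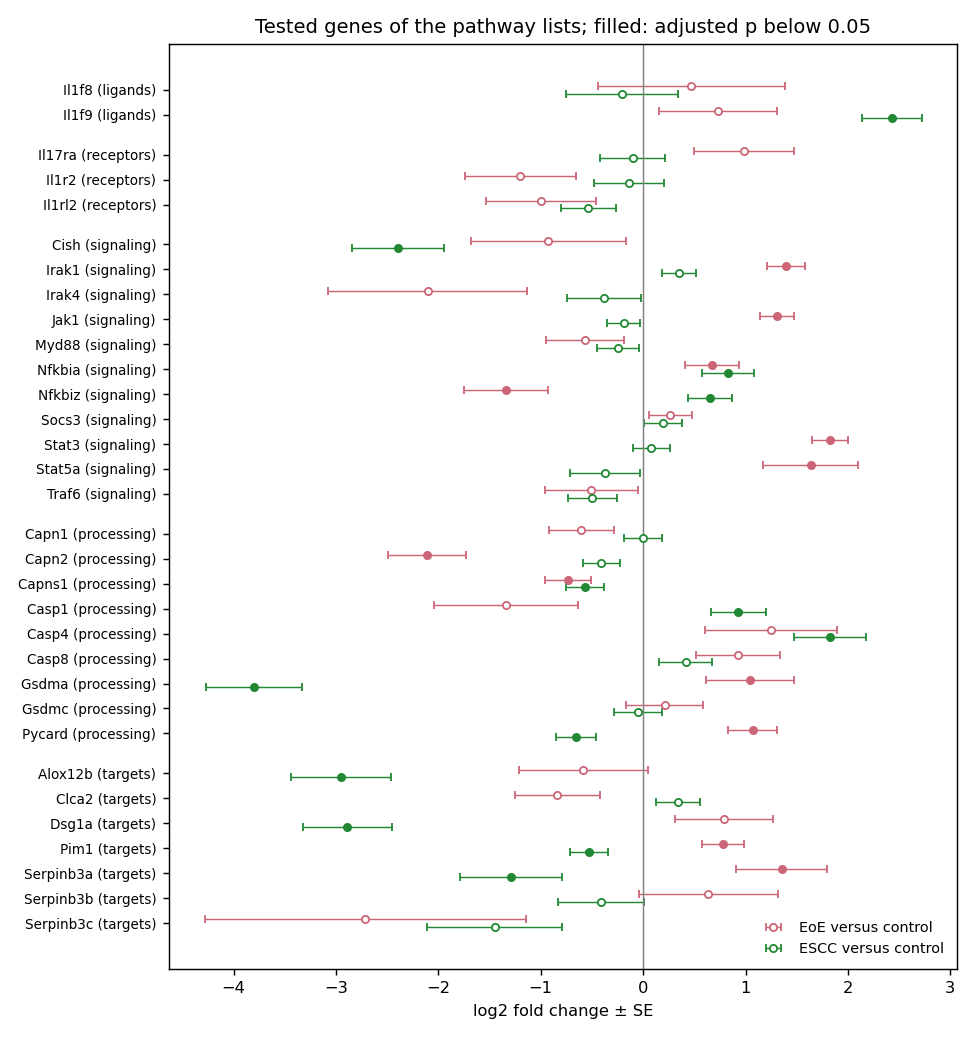
Log2 fold changes with their SE (x axis) of the 32 tested genes in the lists of ligands, receptors, signaling, processing and target genes, for EoE and ESCC versus control. Filled points have an adjusted p below 0.05. Stat3, Jak1 and Irak1 stand at 1.30 to 1.82 in EoE, and Gsdma, Alox12b and Dsg1a at -2.89 to -3.80 in ESCC.

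The genes whose log2 CPM over the 13 mice was most like that of a tested member were found among 5552 genes. For Il33 they were Plxdc2 (Pearson r = 0.91), Sprr1a (0.89), a cornified envelope gene, and Camk1d (0.87). For Il1rn they were Tbc1d14 (0.88), Klf10 (0.87) and Pfkp (0.86), for Il13ra1 they were 2510039O18Rik (0.96), Hk1 (0.96) and Yap1 (0.95), and for Stat6 they were Mrps25 (0.99), Erp44 (0.98) and Eif3g (0.98). The 13 mice fall into 3 conditions of unequal depth, so these values describe shared differences between conditions as much as anything within them.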

How the data were processed

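The authors made the deposited count tables from inDrop reads with UMI-tools 1.0.0, STAR 2.7.3 and featureCounts on GRCm38 (submitters' processing notes), so the values are raw UMI counts per gene and cell. Whether counting used strand is not given in the sources used here. All 4500 deposited cells were kept. UMIs were summed per mouse, over both libraries where there were 2, giving 61571 to 2118140 UMIs per mouse, and the mouse was the replicate. The edgeR p-values use an estimate of spread shared over genes, so they do not measure the spread of 1 gene between mice alone. This holds most for the very small p-values of the cell class sums.

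Sums were tested with edgeR 4.0.16 (R 4.3.3; TMM, filterByExpr, quasi-likelihood test) with Benjamini-Hochberg adjustment over all genes tested and a threshold of 0.05. Cell class sums had the mouse as a block. Genes below the filter were tested with two-sided exact permutation tests on TMM-scaled CPM, 12 in all, whose smallest p is 0.0238 for ESCC and 0.00952 for EoE against control. Intervals are exact Poisson or conditional binomial intervals at 95%. Shares of cells were thinned to 100 UMIs by the hypergeometric distribution. Alternatives were DESeq2 1.42.0, library size scaling, no filter, only the groups compared, the stated cell limits (250 to 3500 genes, 100 to 9500 UMIs), no cells called non-epithelial, classes by summed markers, cells of at least 500 UMIs, each mouse left out and, chosen after seeing the data, repeated barcodes counted once and the first library alone. A doublet caller marked 10 of 4500 cells, too few to count as a check, and no cell was removed. Scripts were tested on simulated data. The members and lists were chosen with earlier results of these data known. Genes named are the 8 members, per list up to 4 with the most UMIs and up to 4 past the threshold by adjusted p, and the 3 genes most correlated with each tested member. Positions are from GENCODE on GRCm38.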

Additional observations from a re-analysis of the deposited data

Results flagged for a closer look

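In 13 groups of 4 or more mice, the gap of the highest or lowest mouse to the others was compared with Dixon's limit, and 3 passed. For measured values chance passes this limit in about 1 of 20 groups, a rate that does not apply to a single UMI beside zeros. Il1rn in control mouse 1 was at 249 CPM, and the next control mouse at 145 CPM. Tslp in control mouse 5 was at 3.55 CPM, which is 1 UMI, with the other control mice at 0. Il4ra in EoE mouse 11 was at 16.2 CPM, also 1 UMI, with the other EoE mice at 0.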

How the results depend on the processing

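EoE cells were shallow, so the EoE values of Il1rn, Il13ra1 and Stat6 rest on 17, 7 and 6 UMIs and those of Tslp, Il18, Il1a and Il4ra are below or near the limit of detection. Condition moved with depth, and their parts cannot be told apart. Of the calls between conditions, Il33 and Il1rn in ESCC versus control, Stat6 in EoE versus control and Il33 in ESCC versus EoE held in every alternative run. Il13ra1 and Stat6 in ESCC versus EoE were lost with the stated cell limits (adjusted p = 0.197 and 0.0911 by edgeR).

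Some alternatives changed how many genes were tested, so shares are given with the counts. The genes called went from 3375 (56.5% of those tested) to 1401 (73.5%) in ESCC versus EoE with only the groups compared, and from 2001 (33.5%) to 1207 (33.5%) in ESCC versus control with the first library of each mouse. Without the filter they went from 1 (0.0228%) to 12 (0.0907%) for the EoE effect by age, from 5 (0.114%) to 19 (0.144%) for old versus young control and from 1269 (29.5%) to 2006 (13.5%) for ESCC in Krt5-dominant cells. Classes by summed markers gave 654 (17.6%) for 421 (7.98%) in the EoE classes, 445 (29.5%) for 805 (25.7%) for ESCC and 814 (53.9%) for 1267 (40.5%) for EoE in Krtdap-dominant cells, and cells of at least 500 UMIs gave 896 (25.6%) for 1456 (33.8%) for EoE in Krt5-dominant cells. The difference of class differences between ESCC and control had 103 (1.95%), and 40 (0.759%) with DESeq2, 57 (1.53%) with summed markers and 58 (0.381%) without the filter. Leaving out 1 mouse gave 41 (without ESCC 17M) to 150 there, 932 (without ESCC 8M) to 1522 for the ESCC classes (1557 with all), 0 to 8 for the EoE effect by age and 0 to 6 for old versus young control. Beyond the number of genes tested, the cause of these changes was not tested.

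Only values of uncalled comparisons changed sign. Leaving out 1 mouse gave log2 values of -0.35 to 0.056 (Il13ra1, ESCC versus control), -0.78 to 0.80 (Il13ra1, EoE effect by age), -0.029 to 0.22 (Il4ra, ESCC classes), -0.16 to 0.24 (Il13ra1, ESCC in Krt5-dominant cells), -0.63 to 0.28, -0.81 to 0.17 and -0.17 to 0.40 (Il13ra1, Il1rn and Stat6, ESCC in Krtdap-dominant cells), and -0.21 to 0.18 and -0.75 to 0.035 (Il13ra1 and Il33, old versus young control). Library size scaling gave -0.19 (Il13ra1, ESCC in Krt5-dominant cells), -0.17 (Stat6, ESCC in Krtdap-dominant cells) and -0.032 (Il13ra1, old versus young control, -0.0041 with DESeq2). Counting barcodes once gave -0.0087 (Stat6, ESCC in Krtdap-dominant cells), leaving out non-epithelial cells 0.043 (Il4ra, ESCC classes) and summed markers -0.072 (Il1rn, EoE classes).

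Scaling moved the median of all genes. For ESCC versus control it was -0.0043 with 991 genes higher and 1010 lower, and -0.15 with 744 and 1392 under library size scaling. For the control classes 846 were higher and 1478 lower, and 1007 and 962 with DESeq2.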
